A study of Mus musculus with 4 samples.

Results

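Genes were examined on which deletion of the ribosomal protein gene Rps6 and a c-Myc transgene did not act additively in mouse liver, together with genes on which the deletion had the same effect with and without the transgene. The measure was an interaction on the log2 scale, the DS6 Myc minus Alb-c-Myc difference minus the DS6 minus WT difference. A value of 0 means that the deletion shifted a gene equally in both backgrounds, and the same number is obtained when the effect of the transgene is compared between livers with and without the deletion. Genes were taken at an interaction of 2 or more, at -2 or less, and as alike when both differences were at least 1 in size in the same direction and less than 0.5 apart. Of 18194 genes with a probe set of their own symbol, 14359 had a log2 value of 6 or more on any array and 3835 did not. Of the 14359, 42 genes (0.292%) had an interaction of 2 or more, 181 (1.26%) one of -2 or less, 93 (0.648%) were alike and higher and 98 (0.682%) were alike and lower, which makes 414 genes. These 4 sets were defined by the values described here, so their sizes and directions are a description and no test was possible.

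Rps6 is a protein of the small ribosomal subunit. When a ribosomal protein is in short supply, ribosome assembly stalls, free ribosomal proteins bind the ubiquitin ligase Mdm2, and p53 accumulates and turns on targets such as the cell cycle inhibitor Cdkn1a. c-Myc is a transcription factor that raises ribosome production and drives cells into division, so its activity and a ribosomal protein deficit bear on the same process from opposite sides. Hepatocytes also carry a sex-dependent set of P450, sulfotransferase and urinary protein genes set by growth hormone pulses, and an injured liver turns on acute phase, progenitor and inflammatory genes.

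Liver RNA was hybridised to 1 Affymetrix mouse expression array for each of 4 genotypes, each an equal mix of RNA from 3 non-fasted male mice aged 5 weeks on a mixed hybrid background. The study names its WT mice Rps6 lox/lox without Cre. DS6 mice carried Rps6 lox/lox with Alb-Cre, a Cre recombinase under the albumin promoter that acts from hepatoblasts on and recombined incompletely. Alb-c-Myc mice carried an albumin-driven c-Myc transgene with Rps6 intact, and DS6 Myc mice carried the floxed alleles, Alb-Cre and the transgene. With 1 pooled array per genotype the spread between mice is not measured, and no p-value or standard deviation between mice can be given. Among 3379 genes with several bright probe sets, the interaction varied between probe sets of 1 gene with a standard deviation of 0.22, which measures probe sets and not animals.

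The labels were checked before the results. All 9 probe sets shared by Rps6 and its pseudogene Rps6-ps4 were slightly lower in DS6 than in WT, by a median log2 difference of -0.29 (range -0.42 to -0.10), and the DS6 Myc minus Alb-c-Myc difference was larger, at a median of -1.76 (range -2.37 to -1.25). The loss of Rps6 mRNA was thus itself not equal in both backgrounds, with a median interaction of -1.48, and its part in the interactions of other genes was not tested. Of the probe sets that carry the Rps6 symbol alone, one was lower in both comparisons (7.10 in WT, 6.30 in DS6, 8.13 in Alb-c-Myc and 5.64 in DS6 Myc). The other, which the highest-mean rule picks, was higher in both comparisons (6.01 in WT, 7.48 in DS6, 5.65 in Alb-c-Myc and 8.25 in DS6 Myc). With an interaction of 1.13 it went against the other Rps6 probe sets, and why was not tested. Myc stood at 8.33 in WT and 8.89 in DS6, against 11.68 in Alb-c-Myc and 11.37 in DS6 Myc. The WT array stood apart. Xist, the noncoding RNA that silences 1 X chromosome in female cells, was 11.84 in WT and 5.88, 6.29 and 6.33 in DS6, Alb-c-Myc and DS6 Myc, although the mice are labelled male, and pancreatic enzyme mRNAs were present in WT too. The Y-linked gene Eif2s3y was present on all 4 arrays, at 8.67, 9.09, 9.11 and 8.91 in the same order. The WT value enters every interaction, and the counts of the 4 sets are therefore also given without the WT array or without the genes concerned, whereas the medians of the gene lists are not. The 10 hepatocyte defining genes measured, Alb and Ttr among them, had a median interaction of 0.03 and none fell in any of the 4 sets.

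The interaction was under 1 in size for 92.8% of the 14359 genes, many of which also differed little between DS6 and WT (median difference -0.01), and across genes it had a standard deviation of 0.61 around a median of 0.01. The DS6 minus WT and DS6 Myc minus Alb-c-Myc differences, which share no array, correlated with Pearson's r = 0.62 across the 14359 genes. The Alb-c-Myc minus WT and DS6 Myc minus DS6 differences, which also share none, correlated with r = 0.09. Genes are not independent replicates and the arrays share a normalization, so both values are descriptions.

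**Figure D1:**
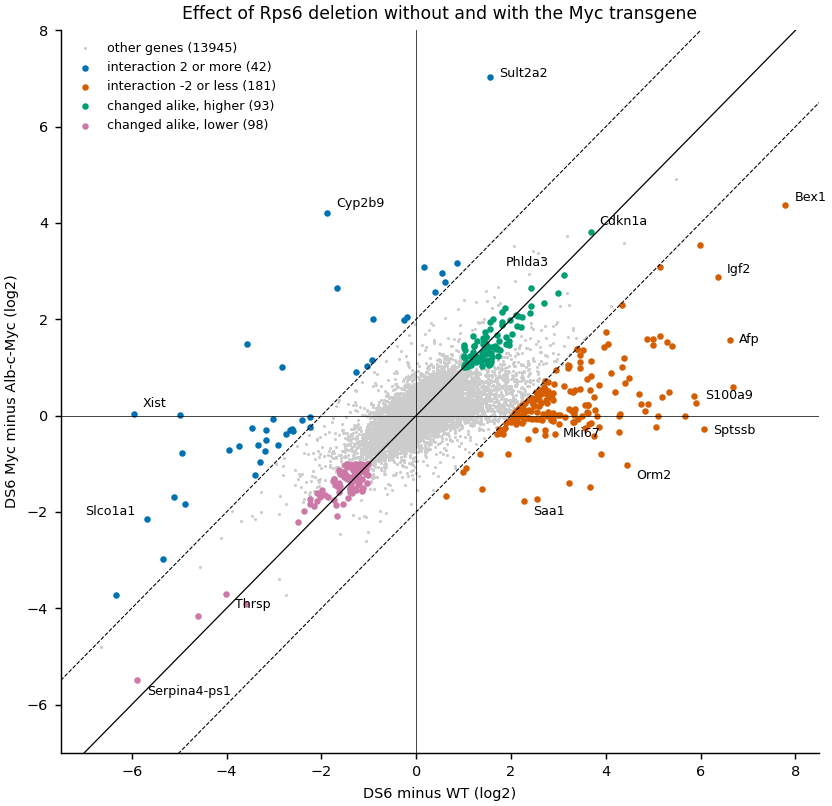
Log2 difference of DS6 Myc minus Alb-c-Myc (vertical axis) against that of DS6 minus WT (horizontal axis) for 14359 genes, 1 point a gene, with colours for the 4 sets; the solid line marks equal differences and the dashed lines an interaction of 2 and -2. The 181 genes at -2 or less lie mostly along the horizontal zero line at the right, and the alike genes lie along the diagonal up to Cdkn1a and down to Serpina4-ps1.

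The larger non-additive set was the 181 genes with an interaction of -2 or less. DS6 was the highest array for 178 of them, with a median of 9.94 against 6.63 in WT, 6.89 in Alb-c-Myc and 7.35 in DS6 Myc. The median DS6 minus WT difference was 2.89 and the median DS6 Myc minus Alb-c-Myc difference 0.13. The 3 genes for which Alb-c-Myc was highest instead were Slc22a7, Gadd45g and Gstp3. Without use of the WT array, DS6 Myc lay below DS6 by 1 or more for 169 of the 181 and by 2 or more for 136. On the linear scale all 181 kept a negative difference of differences. DS6 Myc minus DS6 is the interaction plus Alb-c-Myc minus WT. These counts thus come from the values that chose the genes and are no separate support. Grouped by distance from WT, with 1 log2 unit as the limit, the 181 formed 4 kinds, which were drawn up after the values had been seen.

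**Figure D2:**
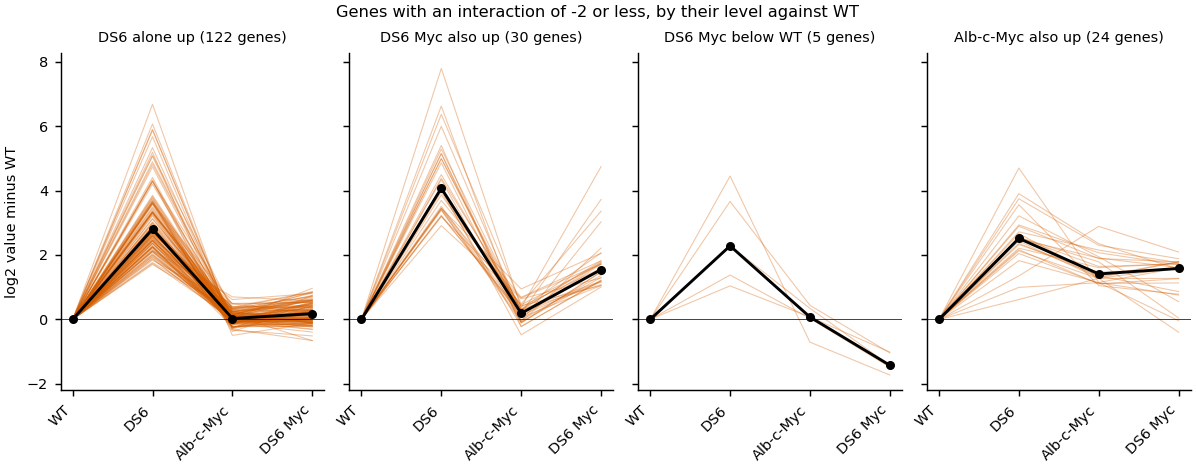
Log2 value minus WT on the 4 arrays for the genes with an interaction of -2 or less, 1 thin line a gene and the group median in black, in 4 panels by their state against WT. In the first panel 122 genes peak in DS6 alone, in the second 30 genes keep a smaller increase in DS6 Myc, in the third 5 genes end below WT in DS6 Myc, and in the fourth 24 genes are also higher in Alb-c-Myc.

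In the first kind, 122 genes were higher in DS6 than in WT and lay within 1 log2 unit of WT on both Myc arrays. Their medians were 6.12 in WT, 9.48 in DS6, 6.26 in Alb-c-Myc and 6.45 in DS6 Myc. WT lay under 6 for 55 of the 122, where the array hardly separates signal from background, so the size of those differences is uncertain. For 121 of them DS6 stood alone, at least 1 log2 unit above 3 arrays that lay within 1 unit of each other. Any peculiarity of the DS6 pool would give the same pattern, and with 1 array it cannot be told apart from an effect of the genotype.

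The most negative interaction of all was that of Sptssb, -6.33. Sptssb, a small subunit of serine palmitoyltransferase, the first enzyme of sphingolipid synthesis, was 4.96 in WT, 11.02 in DS6, 4.84 in Alb-c-Myc and 4.57 in DS6 Myc. It was thus bright in DS6 only, and a further probe set of the gene gave -3.44. Dmbt1, a scavenger receptor protein of mucosal surfaces, was 7.45, 14.12, 7.15 and 7.74 in the same order, an interaction of -6.09. Clca1, a secreted protein of goblet cells, was 4.45, 10.12, 4.24 and 4.24, an interaction of -5.67. Klf5, a transcription factor of proliferating epithelia, was 5.70, 10.59, 5.78 and 6.03. Sult1e1, which sulfates and inactivates oestrogens, was 5.40, 10.59, 4.91 and 5.29. In each of these genes DS6 lay more than 4 log2 units above the highest other array.

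Of the 122 genes, 10 were on the list of neutrophil genes. Of 17 neutrophil genes measured, 11 had, with Lcn2 of the second kind, an interaction of -2 or less, against 1.26% of all genes, and the median interaction of the 17 was -2.27 against 0.01 over all genes. S100a8 and S100a9, which form the calcium-binding protein calprotectin, behaved alike. S100a9 was 7.60 in WT, 13.50 in DS6, 7.50 in Alb-c-Myc and 7.76 in DS6 Myc, and S100a8 was 7.14, 13.003, 7.02 and 7.42. Pglyrp1, a peptidoglycan-binding granule protein, was 5.25, 10.07, 5.36 and 5.46. Chil3, a chitinase-like lectin, was 5.22, 9.95, 5.22 and 5.46. The list did not move as a whole, since the receptor Cxcr2 (interaction 0.09) and the granule enzymes Elane (-0.23) and Mpo (-0.39) stayed near 0 and Elane, Mpo and Cxcr2 lay between 6.09 and 6.76 on every array. The summed level of the list was 11.06 in WT, 15.43 in DS6, 11.01 in Alb-c-Myc and 11.64 in DS6 Myc on the log2 scale. In whole liver RNA more cells of a type and more RNA per cell cannot be told apart.

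Other genes of white blood cells took part to a smaller extent. The share of all genes at -2 or less was 1.26%. Igha and Jchain, the heavy and joining chains of IgA, were members, with interactions of -3.83 and -3.50, the only ones of 7 B and plasma cell genes measured, whose median interaction was -0.09. The antibody light chain genes Igkv8-30 (-3.19) and Iglv1 (-2.42), which are not on that list, were members of the first kind too. Igha was 8.75, 12.57, 8.76 and 8.74 on the WT, DS6, Alb-c-Myc and DS6 Myc arrays, and its further probe sets gave -3.47 or less. Of 22 macrophage genes 2 were members, Marco and Cd14, but the median of the 22 was -0.998. The 7 T and NK cell genes had a median of -0.24 and held no member. Among 27 chemokine genes 4 were members. Cxcl13, which attracts B cells, was 8.13, 12.41, 7.83 and 7.47, an interaction of -4.63, and the neutrophil attractant Cxcl5 was 4.14, 6.30, 4.17 and 4.18, so that it was dim even in DS6.

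Some genes of bile ducts and of mucosal epithelium also peaked in DS6 alone. Over all genes, 1.26% were at -2 or less. Of 12 biliary and progenitor genes measured, 8 had an interaction of -2 or less, of which 4 (Krt19, Krt7, Sox9 and Muc1) were of the first kind, and the median of the 12 was -2.68, the lowest of the 40 lists used here. Krt19, the keratin that marks bile ducts, was 7.13 in WT, 12.47 in DS6, 7.04 in Alb-c-Myc and 7.53 in DS6 Myc. Krt7 was 6.53, 10.15, 6.55 and 6.77, and the mucin Muc1 was 6.63, 10.93, 6.70 and 6.73. These 3 genes were near their WT level in DS6 Myc, as the definition of the first kind requires. Prom1, a progenitor marker on the same list, was no member, at 6.77, 11.15, 5.84 and 9.43, so that it was high in both livers with the deletion. Of 26 measured genes better known from intestine and stomach, a list put together after values had been seen and partly from members, 13 had an interaction of -2 or less, and DS6 lay at least 1 unit above every other array for 18. Krt20 was 5.68, 9.35, 5.57 and 6.10, the brush border protein Vil1 was 5.40, 8.64, 5.41 and 5.91, and Muc3 was 5.24, 8.37, 5.36 and 5.34. Other genes on that list lay near 0, with an interaction of 0.27 for Cdx2, -0.23 for Muc2 and 0.39 for Fabp2. Of 20 matrix and stellate cell genes, 3 were members (Thbs1, Col1a1 and Acta2), and the median was -1.46. Col1a1, the main fibrillar collagen, was 8.22, 10.71, 8.84 and 9.03.

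In the second kind, 30 genes were higher in DS6 and kept a smaller increase in DS6 Myc, while Alb-c-Myc lay within 1 unit of WT. Their median was 7.24 in WT, 11.63 in DS6, 7.42 in Alb-c-Myc and 8.89 in DS6 Myc, so the median effect of the deletion was 4.07 without the transgene and 1.41 with it. By the definition of this kind none of these 30 could be set by 1 array. Genes of the immature liver were prominent. Of 11 immature hepatocyte genes measured 5 were members at -2 or less, all of this kind, against 1.26% of all genes. The median interaction of the 11 was -1.67. Afp, the fetal serum protein of hepatoblasts, was 6.64, 13.26, 6.54 and 8.11, an interaction of -5.05 that its further probe sets gave as -4.86 and -6.83. Igf2, the imprinted fetal growth factor, was 7.70, 14.07, 8.18 and 11.06. Bex1 was 4.34, 12.12, 4.70 and 9.08, the largest DS6 minus WT difference of any member, 7.79. Ly6d was 7.32, 13.31, 7.51 and 11.04. For Igf2, Bex1 and Ly6d the DS6 Myc level stayed more than 2.8 log2 units above Alb-c-Myc, and it was still over 2 units below DS6 for each.

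The same kind held Marco, a scavenger receptor of macrophages (7.78, 13.07, 8.08 and 9.60), Cd14, the lipopolysaccharide co-receptor (7.23, 12.10, 7.12 and 8.71), and Lcn2, an iron-siderophore binding protein of neutrophils and injured hepatocytes (8.87, 14.02, 8.94 and 10.59). The surface proteins Cd24a (7.75, 13.15, 7.53 and 8.98) and Epcam (7.01, 11.11, 7.32 and 8.19) of progenitor cells were placed here rather than with Krt19. Further probe sets of Cd24a lay within 1 unit of WT in DS6 Myc (8.28 against 7.30, and 4.94 against 4.63), as in the first kind. The place of Cd24a thus depends on the probe set. The immediate early gene Fos was 6.90, 10.35, 7.84 and 8.95, and Ier3 was 6.49, 10.45, 6.27 and 7.70. A further probe set of Epcam gave an interaction of 0.01, so that this value rests on 1 probe set.

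In the third kind, 5 genes were higher in DS6 than in WT and at least 1 log2 unit below WT in DS6 Myc, Orm2, Saa2, Saa1, Serpinb1a and Krt23. For these the deletion had opposite signs in both backgrounds. Orm2, which encodes the acute phase plasma protein orosomucoid, was 9.77 in WT, 14.22 in DS6, 9.07 in Alb-c-Myc and 8.05 in DS6 Myc, an interaction of -5.47. Saa2, a serum amyloid A protein, was 10.59, 14.25, 11.03 and 9.55, an interaction of -5.14. Saa1 was 12.30, 14.58, 12.64 and 10.88, an interaction of -4.05, which its further probe set gave as -4.36. Saa3, which is also made outside hepatocytes, was 9.22, 13.49, 9.62 and 9.61, so it did not drop below WT. A2m was 6.65, 11.71, 6.58 and 6.34. Of the 25 acute phase genes measured, 6 had an interaction of -2 or less, against 1.26% of all genes. Another 1, the hepcidin gene Hamp2, was alike and lower, and the median of the 25 was -0.70. Of 26 NF-kB target genes, 6 were members and the median was -0.80, and of those 6 Lcn2 and Saa3 are also on the acute phase list.

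Promoters of members of this set are shown because C/EBP factors are known activators of acute phase and neutrophil genes. The C/EBP motif was spelled TTGCNNAA and searched on both strands of the window from 250 bases before to 50 bases after each start in RefSeq (GRCm38.p6), with its match in capitals. Orm2 lies on chr4:63362199-63362498 (plus strand), Saa3 on chr7:46715627-46715926 (minus strand) and S100a9 on chr3:90695672-90695971 (minus strand), and the windows hold the first exon or part of it.
Orm2: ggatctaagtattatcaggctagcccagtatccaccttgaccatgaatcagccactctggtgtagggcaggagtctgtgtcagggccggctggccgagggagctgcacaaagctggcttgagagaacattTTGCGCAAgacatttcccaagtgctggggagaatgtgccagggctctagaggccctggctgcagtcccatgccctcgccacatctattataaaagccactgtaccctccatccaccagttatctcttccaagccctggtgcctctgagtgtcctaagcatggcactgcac
Saa3: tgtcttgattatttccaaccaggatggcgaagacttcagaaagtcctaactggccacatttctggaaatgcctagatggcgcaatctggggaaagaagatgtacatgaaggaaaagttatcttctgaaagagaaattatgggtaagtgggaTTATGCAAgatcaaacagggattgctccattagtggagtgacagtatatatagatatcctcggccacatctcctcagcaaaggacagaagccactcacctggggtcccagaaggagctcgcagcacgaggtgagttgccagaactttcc
S100a9: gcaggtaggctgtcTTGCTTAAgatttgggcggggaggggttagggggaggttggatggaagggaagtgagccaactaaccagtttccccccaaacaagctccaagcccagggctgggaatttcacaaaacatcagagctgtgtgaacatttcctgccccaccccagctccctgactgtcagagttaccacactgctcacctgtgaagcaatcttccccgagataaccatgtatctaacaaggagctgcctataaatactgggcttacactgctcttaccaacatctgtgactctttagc
The match began 120 bases before the start of Orm2, 99 before that of Saa3 and 236 before that of S100a9. Of 134 genes at -2 or less with a promoter in the table, 23 (17.2%) held this motif, against 10.5% of all 11516 genes with one. The higher share was not special to that motif, since TATAAA was found in 20.1% against 10.0%. The median GC content of these windows was 55.1% against 60.0%, and its part in the shares was not tested. The AP-1 motif TGANTCA was in 8.96% against 6.92%, the STAT motif TTCNNNGAA in 8.96% against 8.34%, the c-Myc E-box CACGTG in 8.96% against 11.1%, and the NF-kB consensus in 8.21% against 6.21%. The 35 promoters of genes at 2 or more had a median GC content of 43.0%, and 25.7% of them held TTGCNNAA and 34.3% TATAAA. A match is a stretch of letters and not a shown binding site.

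In the fourth kind, 24 genes were higher in Alb-c-Myc too. Their median was 7.37 in WT, 9.89 in DS6, 9.13 in Alb-c-Myc and 8.82 in DS6 Myc, so the median was higher with either alteration alone than with both. Mitosis genes led this kind. Of 25 mitosis genes measured 9 had an interaction of -2 or less, against 1.26% of all genes. Over the 25 the median DS6 minus WT difference was 2.01 and that of Alb-c-Myc minus WT 1.12. The median DS6 Myc minus Alb-c-Myc difference was 0.14 and the median interaction -1.81. Mki67, which marks cycling cells, was 6.95 in WT, 9.84 in DS6, 8.84 in Alb-c-Myc and 8.73 in DS6 Myc. Ccnb2, a mitotic cyclin, was 6.61, 9.55, 8.68 and 8.31. Cdk1, the kinase that drives entry into mitosis, was 8.40, 10.44, 9.51 and 9.53. In these genes both Myc arrays agreed within 0.4 log2 units, below DS6 and above WT. The 7 genes of this set for which WT alone stood low, Birc5, Cdca3, Pbk, Ctps, Ccna2, Cdc20 and Cdk1, are all of this kind, and for them DS6 Myc minus DS6, which does not use WT, ranged from -0.48 to -0.96. Of 19 DNA replication genes none was at -2 or less, and their median was -0.55.

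The fourth kind also held genes outside the cell cycle. Psat1, an enzyme of serine synthesis, was 5.74, 9.65, 8.10 and 7.31, an interaction of -4.69. Osbpl3, an oxysterol-binding protein, was 7.34, 10.56, 9.29 and 7.90, and Scara5, a ferritin receptor, was 7.28, 9.83, 9.07 and 7.32. In both, DS6 Myc returned to within 0.6 units of WT, but a further probe set of Scara5 gave an interaction of -0.14. Tff3, a trefoil peptide of mucus, was 8.80, 13.50, 9.95 and 10.40. For Slc22a7 and Gadd45g, DS6 was within 1 unit of WT and Alb-c-Myc alone was over 1 unit higher.

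The 42 genes with an interaction of 2 or more were mostly hepatocyte genes of metabolism, and their levels were lowest in DS6 for 30 and in Alb-c-Myc for 12. The median was 10.37 in WT, 7.88 in DS6, 7.88 in Alb-c-Myc and 9.53 in DS6 Myc. This set depended strongly on the WT pool. Of the 42, 23 were on lists of pancreatic, sex chromosome, male-biased or female-biased liver genes, and 19 were left without them. DS6 Myc lay above DS6 by 1 or more for 21 of the 42 and by 2 or more for 12, which is likewise not independent of how the genes were chosen. P450 genes were the largest family, with 9 of 49 measured members at 2 or more, against 0.292% of all genes, and a median of 0.55. Of the 9, 5 were among the 19 genes left without the lists of pancreatic, sex chromosome and sex-biased genes. Among these 5, Cyp2c54 was high in WT alone.

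**Figure D3:**
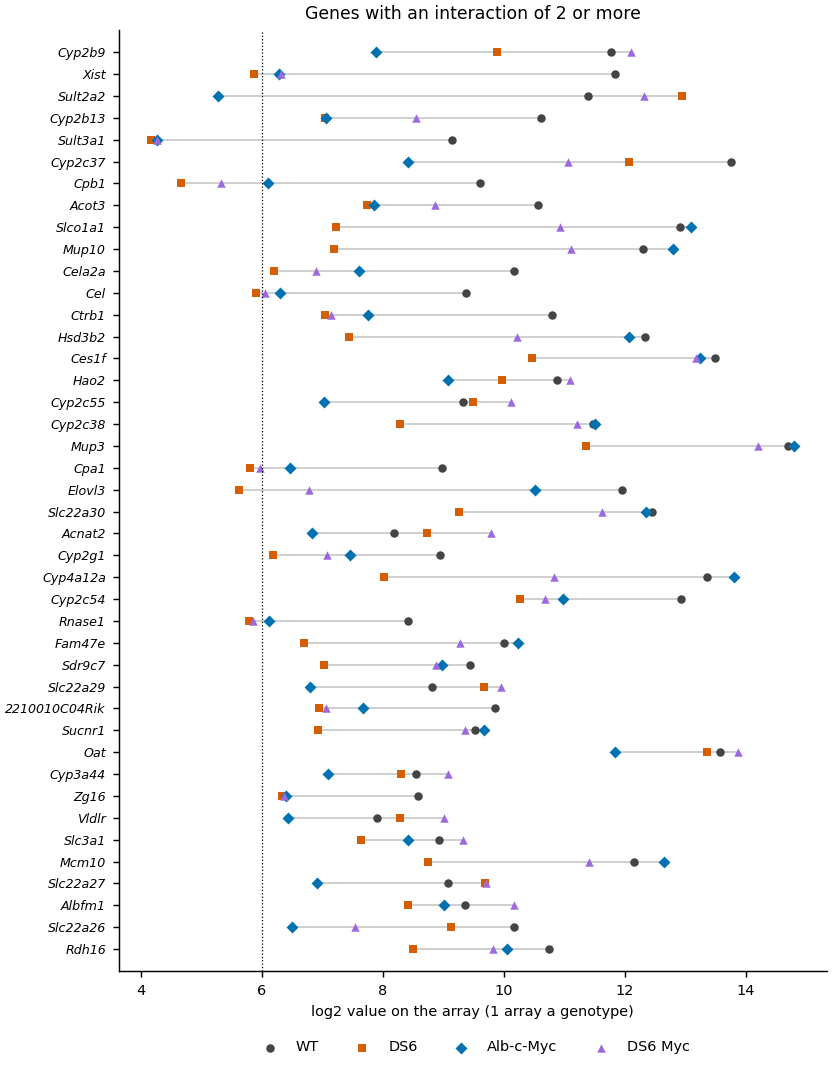
Log2 value on each of the 4 arrays for the 42 genes with an interaction of 2 or more, ordered by interaction from Cyp2b9 (6.10) at the top to Rdh16 (2.01) at the bottom; the dotted line marks a log2 value of 6. In the rows of Xist, Sult3a1 and the pancreatic genes WT stands alone at the right, in those of Sult2a2, Cyp2c55 and Oat Alb-c-Myc stands at the left, and in those of Ces1f, Cyp2c38 and Mup3 DS6 does.

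In 9 of the 42 genes WT alone was high, and their median DS6 Myc minus DS6 difference, which does not use the WT array, was 0.12. They were Xist, 6 pancreatic genes (Cel, Ctrb1, Cpa1, Rnase1, 2210010C04Rik and Zg16), Sult3a1 and Cyp2c54. Sult3a1, a sulfotransferase of female liver, was 9.15 in WT and 4.17, 4.27 and 4.28 on the other arrays. Cyp2c54 was 12.92 in WT and 10.26, 10.98 and 10.67 on the others. Ctrb1, a chymotrypsinogen, was 10.80 in WT and 7.05, 7.77 and 7.14 elsewhere. The pancreatic genes Cpb1 (9.61, 4.66, 6.10 and 5.33) and Cela2a (10.16, 6.21, 7.61 and 6.90) belong with them but differ among the other arrays by more than 1 unit. In all, 8 of 22 pancreatic genes measured were at 2 or more, against 0.292% of all genes. The summed log2 level of the 22 was 13.84 in WT and between 11.83 and 12.46 on the other arrays. Whether the remaining 33 genes owe part of their interaction to the WT pool was not tested.

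In 8 genes DS6 alone was low, at least 1 log2 unit below the other arrays, which lay within 1 log2 unit of each other. Ces1f, a carboxylesterase, was 13.49 in WT, 10.47 in DS6, 13.24 in Alb-c-Myc and 13.17 in DS6 Myc. Cyp2c38 was 11.47, 8.29, 11.51 and 11.21, and the urinary protein gene Mup3 was 14.69, 11.36, 14.80 and 14.19. Slc22a30, an organic anion transporter, was 12.45, 9.26, 12.35 and 11.62, and Fam47e was 10.00, 6.70, 10.24 and 9.28. The other three were Sdr9c7, Sucnr1 and Rdh16. That DS6 Myc lay above DS6 and within 1 log2 unit of WT in all 8 follows from how they were chosen. The median DS6 Myc minus DS6 difference, which does not use WT, was 2.50. All 8 rest on 1 DS6 array, and a peculiarity of that pool cannot be told apart from an effect of the genotype. Mup3 shares sequence with other Mup genes, so its probe set may read several of them.

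Male-biased genes were low in DS6 and between DS6 and WT in DS6 Myc. Of 12 measured, 5 had an interaction of 2 or more (Slco1a1, Mup10, Mup3, Elovl3 and Cyp4a12a), against 0.292% of all genes. Another 3 were alike and lower, against 0.682% of all genes. The median DS6 minus WT difference of the 12 was -4.86, against -1.92 for DS6 Myc minus Alb-c-Myc. Slco1a1, an organic anion uptake transporter, was 12.91 in WT, 7.23 in DS6, 13.09 in Alb-c-Myc and 10.94 in DS6 Myc. Mup10 was 12.30, 7.19, 12.80 and 11.10, and Cyp4a12a was 13.36, 8.01, 13.80 and 10.82. Hsd3b2, a hydroxysteroid dehydrogenase on no list, was 12.33, 7.44, 12.06 and 10.23. Elovl3, a fatty acid elongase, was 11.95, 5.62, 10.51 and 6.79, so that little of its level remained in DS6 Myc. The summed log2 level of the 12 was 16.37 in WT, 13.42 in DS6, 16.75 in Alb-c-Myc and 15.27 in DS6 Myc. The part of the WT pool with the Xist RNA in these differences was not tested.

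In 12 genes Alb-c-Myc was the lowest array. That DS6 Myc lay above Alb-c-Myc in all 12 follows from how they were chosen. For 4 of them, Cyp2c55, Cyp3a44, Oat and Slc22a27, Alb-c-Myc alone stood low. The pattern of those 4 rests on 1 array, and a peculiarity of the Alb-c-Myc pool cannot be told apart from an effect of the genotype. Over the 12 the median DS6 minus WT difference was -0.02 and the median DS6 Myc minus Alb-c-Myc difference 2.72. Sult2a2, a sulfotransferase for steroids and bile acids, was 11.39 in WT, 12.95 in DS6, 5.28 in Alb-c-Myc and 12.31 in DS6 Myc, an interaction of 5.48. Cyp2b9, a P450 of female and drug-exposed liver, was 11.77, 9.89, 7.89 and 12.10, the highest interaction of all at 6.10. Cyp2c37 was 13.75, 12.07, 8.41 and 11.07. Cyp2c55 was 9.33, 9.49, 7.03 and 10.12, and Oat, a mitochondrial aminotransferase of pericentral hepatocytes, was 13.57, 13.36, 11.83 and 13.87. The lipoprotein receptor gene Vldlr was 7.90, 8.29, 6.44 and 9.01, but 1 of its 5 further probe sets gave only 0.70. In Cyp2c55, Oat and Vldlr neither DS6 nor DS6 Myc lay more than 0.3 units below WT.

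Female-biased genes formed a large part of this group. Of 17 measured, 9 had an interaction of 2 or more, against 0.292% of all genes, and the median of the 17 was 2.08, the highest of the 40 lists. Their summed log2 level was 14.22 in WT, 14.17 in DS6, 12.004 in Alb-c-Myc and 14.12 in DS6 Myc. Xist was low in DS6, Alb-c-Myc and DS6 Myc alike and high in WT. The part of the WT pool in the interactions of these genes was not tested. Sult2a2, Hao2, Cyp3a44 and Slc22a27 were higher in DS6 Myc than in Alb-c-Myc by 7.03, 2.01, 1.98 and 2.78, a difference that uses no WT value. Its direction follows from how the group was chosen, since Alb-c-Myc was the lowest array for each. Acot3, a peroxisomal thioesterase, was 10.57, 7.74, 7.86 and 8.86, and Cyp2b13 was 10.62, 7.04, 7.06 and 8.55, so that for both of them DS6 and Alb-c-Myc were equally low and WT was the highest array.

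Mcm10 had an interaction of 2.16 (12.16, 8.75, 12.65 and 11.40), but its 2 further probe sets, at 4.80 to 7.12 on all arrays, gave -0.16 and 0.09. The probe sets of this DNA replication factor thus disagree, and the value is that of 1 of them. Another 3 members at 2 or more stood in none of the groups above. They were Cyp2g1 (8.94, 6.19, 7.47 and 7.09), Slc3a1 (8.93, 7.65, 8.42 and 9.33) and Albfm1 (9.36, 8.42, 9.01 and 10.17).

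A gene with alike differences was one on which the deletion acted to the same extent whether the transgene was present or not. Of the 93 alike and higher genes, 90 differed by under 1 between Alb-c-Myc and WT, and 74 by under 0.5. The median DS6 minus WT difference was 1.48 and the median DS6 Myc minus Alb-c-Myc difference 1.40. Targets of p53 headed this set. Of 30 p53 targets measured 6 were alike and higher (Cdkn1a, Phlda3, Zmat3, Btg2, Aen and Plk2), against 0.648% of all genes, 1 was alike and lower (Plk3) and 1 had an interaction of -2 or less (Pmaip1). The median interaction of the 30 was 0.24, with median differences of 1.34 without and 1.06 with the transgene. Cdkn1a, the inhibitor of cyclin-dependent kinases, was 8.89 in WT, 12.57 in DS6, 9.70 in Alb-c-Myc and 13.50 in DS6 Myc, and its differences of 3.68 and 3.80 were the largest of the set. Phlda3, a repressor of Akt, was 7.86, 10.98, 8.48 and 11.40. Zmat3 was 8.04, 10.27, 8.62 and 10.68, and Btg2 was 9.04, 11.44, 9.35 and 11.47. The 2 arrays with the deletion lay above the 2 without it in each of these genes, by at least 1.6 log2 units. Pmaip1, a pro-apoptotic protein of the Bcl2 family, did not share this, at 5.14, 9.47, 4.86 and 5.88.

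The start of Cdkn1a is shown because it is the member with the largest alike differences and the best known p53 target. RefSeq lists 2 start windows for it, of which the upstream one, chr17:29090729-29091028 (plus strand, GRCm38.p6), holds 2 matches to the p53 half-site, printed in capitals.
Cdkn1a: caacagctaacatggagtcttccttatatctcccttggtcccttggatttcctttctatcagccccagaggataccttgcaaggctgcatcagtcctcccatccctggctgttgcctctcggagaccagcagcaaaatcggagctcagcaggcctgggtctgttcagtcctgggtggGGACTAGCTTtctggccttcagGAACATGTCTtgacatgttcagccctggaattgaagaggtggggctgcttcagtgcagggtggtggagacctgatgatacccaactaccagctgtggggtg
The matches began 73 and 51 bases before the start, and the other window held none. The p53 half-site was found in 5 of 78 promoters of alike and higher genes (6.41%), against 8.48% of all 11516 and 10.4% of those at -2 or less.

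**Figure D4:**
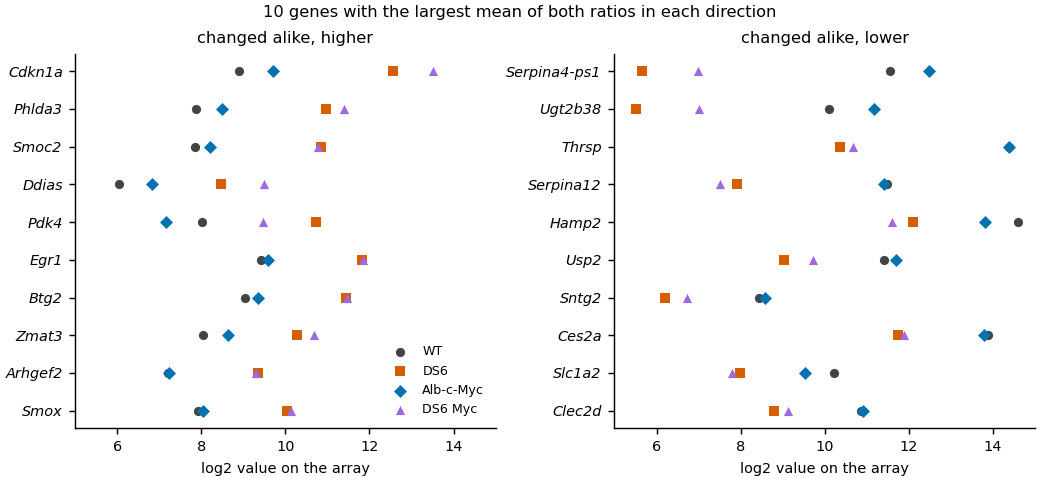
Log2 values on the 4 arrays for the 10 alike and higher genes (left) and the 10 alike and lower genes (right) with the largest mean of both differences. In all 20 rows the DS6 and DS6 Myc points lie together on one side and the WT and Alb-c-Myc points on the other, as for Cdkn1a (12.57 and 13.50 against 8.89 and 9.70).

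Genes outside the p53 list shared this pattern. Smoc2, a matrix protein that binds calcium, was 7.85, 10.84, 8.21 and 10.76, and Ddias, which protects cells from apoptosis after DNA damage, was 6.04, 8.45, 6.82 and 9.48. Pdk4, the kinase that shuts off pyruvate dehydrogenase, was 8.02, 10.72, 7.15 and 9.47. The immediate early transcription factor Egr1 was 9.41, 11.83, 9.58 and 11.85, unlike Fos, for which the effect of the deletion was 3.45 without and 1.11 with the transgene. Arhgef2 was 7.21, 9.35, 7.22 and 9.29, and the polyamine oxidase Smox was 7.93, 10.03, 8.03 and 10.13. The Nrf2 targets Srxn1 and Gstm3 were both alike and higher, and Gstm3, a glutathione transferase, was 12.78, 14.22, 12.82 and 14.36. The clock gene Arntl was 7.78, 9.33, 6.76 and 8.56.

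The 98 alike and lower genes were largely hepatocyte genes, with a median of 10.86 in WT, 9.21 in DS6, 10.90 in Alb-c-Myc and 9.45 in DS6 Myc. Serpina4-ps1, a serpin pseudogene transcript of male liver, was 11.56, 5.66, 12.48 and 6.99, with differences of -5.90 and -5.49. Ugt2b38, a glucuronosyltransferase, was 10.11, 5.50, 11.18 and 7.02. Both are on the male-biased list together with Slco1a1 and Mup10. DS6 Myc lay above DS6 by 3.71 for Slco1a1 and 3.91 for Mup10, against 1.33 for Serpina4-ps1. Without the deletion, Alb-c-Myc lay above WT by only 0.17 for Slco1a1 and 0.50 for Mup10. Thrsp, a regulator of fatty acid synthesis, was 14.39, 10.37, 14.38 and 10.68. Serpina12, the adipokine vaspin, was 11.49, 7.91, 11.43 and 7.52. Hamp2 was 14.60, 12.10, 13.83 and 11.61, and the deubiquitinase gene Usp2, which follows the circadian clock, was 11.41, 9.05, 11.70 and 9.73. The carboxylesterase Ces2a was 13.90, 11.74, 13.79 and 11.90, unlike Ces1f, which was low in DS6 only. Slc1a2, the glutamate transporter of pericentral hepatocytes, was 10.22, 7.99, 9.55 and 7.81.

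By definition neither alike set could rest on the WT pool alone, since DS6 Myc minus Alb-c-Myc uses no WT value. Alb-c-Myc lay within 1 log2 unit of WT for 96 of the 98 lower genes, as for 90 of the 93 higher ones, and without the lists of pancreatic, sex chromosome and sex-biased genes 95 and 93 genes were left.

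Of 24 bile acid genes 4 were alike and lower, the uptake transporters Slc10a1 and Slc10a2 and the conjugating enzymes Baat and Slc27a5, against 0.682% of all genes. Slc10a2 was dim, at 6.67 in WT, 5.645 in DS6, 8.66 in Alb-c-Myc and 7.43 in DS6 Myc. Its DS6 Myc level thus lay above WT. None of the 24 had an interaction past 2 in size and their median was 0.04. Of 23 coagulation and complement genes 3 were alike and lower (F7, Masp1 and Mbl1), with a median interaction of 0.10. The proline dehydrogenase gene Prodh was alike and lower, as was the clock gene Per2. No member of any of the 4 sets was found among 43 cytosolic ribosomal protein genes with a symbol of their own (median interaction -0.10), 41 ribosome biogenesis genes (-0.18), 20 sterol synthesis genes (0.03) or 15 hepatocyte transcription factor genes (0.17).

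**Figure D5:**
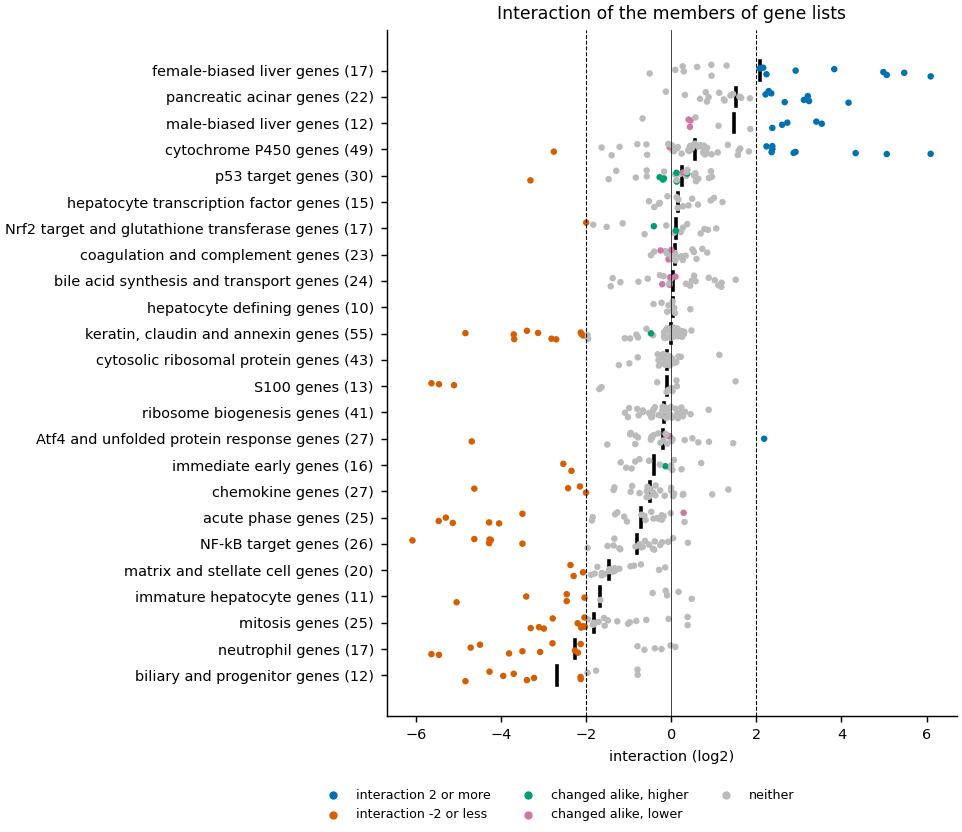
Interaction (log2, horizontal axis) of each measured gene on 24 lists, 1 point a gene, coloured by set, with the median as a black bar, the number of genes in brackets and dashed lines at 2 and -2; genes may be on several lists. Female-biased liver genes have the highest median, 2.08, biliary and progenitor genes the lowest, -2.68, and the ribosomal lists lie around 0.

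The sets were cut from a continuous range. Just inside the limit of 2 stood Rdh16 (2.01) and Slc22a26 (2.08), and just outside Fn3k (1.96) and Tex12 (1.94). Just inside -2 stood Akr1b8 and Itih5, both at -2.002 after rounding, and just outside Glipr1 (-1.999) and Tmc4 (-1.994). A further probe set bright enough to use existed for 54 of the 181 genes at -2 or less, and in 47 of the 54 it gave -1 or less at least once. For 8 of the 42 genes at 2 or more it existed, and 7 of the 8 had one at 1 or more. Of 45 alike and higher genes with a further probe set, 24 had one past 1 in both differences, and of 45 alike and lower genes 23 did. Those counts did not ask for both differences to lie under 0.5 apart. Further probe sets of Arhgef2 (interaction -0.82 and -1.04), Ddias (1.28) and Smoc2 (-0.76) did not meet that limit. Those of Cdkn1a (0.36) and Btg2 (-0.42) did.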

How the data were processed

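The authors hybridised liver RNA to Affymetrix mouse expression arrays, 1 for each of 4 genotypes with RNA of 3 mice pooled in equal amounts, and deposited 1 log2 value per probe set and array after RMA summarization and quantile normalization (RMA and affy in the submitters' processing notes, with no version). Of 45101 probe sets, 34958 carry 1 gene symbol, 932 several and 9211 none in the platform annotation. RefSeq (GRCm38.p6) holds the Entrez identifiers of 34754 of the 34958 and changed no symbol. Each of 18194 genes was represented by the probe set that was brightest on average, and 14359 with a log2 value of 6 or more on any array were kept. RMA and quantile normalization assume a like distribution on all arrays, and low differences are compressed near background.

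Interactions, counts, medians and 40 gene lists were computed with Python 3.11.15, numpy 2.4.6 and pandas 2.3.3, drawn with matplotlib 3.10.9, and the counting was tested on simulated data. A gene was set by 1 array when the other 3 lay within 1 log2 unit and it lay at least 1 unit outside them. With 1 array per genotype no test was run. The number of arrays limits the precision. The members, limits and lists were chosen with earlier results of these data known. Named by rule were the 15 highest and 15 lowest interactions, the 5 largest of each single-array pattern, 10 alike genes in each direction, up to 4 members of each list, 2 genes on either side of each limit, and Rps6, Myc, Xist and Y-linked genes. Others were picked after their values were seen. Alternatives concerned the probe set, filters, normalization, limits, the linear scale and the WT array.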

Additional observations from a re-analysis of the deposited data

Results flagged for a closer look

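In 12 genes, all of them members, the deletion went in opposite directions by at least 1 log2 unit with and without the transgene, and with 1 array per genotype the difference was not tested. The interaction was -5.47 for Orm2, -5.14 for Saa2, -4.60 for Osbpl3, -4.29 for Scara5, -4.05 for Saa1, -2.89 for Serpinb1a and -2.13 for Krt23, which were higher in DS6 than in WT and lower in DS6 Myc than in Alb-c-Myc. It was 6.10 for Cyp2b9, 5.07 for Cyp2b13, 4.33 for Cyp2c37, 3.83 for Acot3 and 2.08 for Slc22a26, which went the other way. All 5 of the latter were above 10 in WT, and for the last 2 and Cyp2b13 and Cyp2c37 WT was the highest array.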

How the results depend on the processing

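No paired analysis was possible because each genotype has 1 array, and for the same reason no replicate could be left out. The count of 42 genes at 2 or more became 19 without the 4 lists tied to the WT pool, 21 without genes set by any 1 array, 12 where DS6 Myc minus DS6 also had to pass the limit, 205 at a limit of 1 and 14 at 3. The count of 181 genes at -2 or less became 117 with 6 or more required on every array, 53 without genes set by any 1 array, 824 at a limit of 1 and 68 at 3. With differences under 1 apart in place of 0.5, the alike and higher genes became 161. The share set by 1 array was 50.0% at 2 or more and became 19.05% when the other 3 arrays had to lie within 0.5, and at -2 or less it was 70.7% and became 47.5% by that change and 59.8% with 6 or more on every array. The other counts stayed within 1.5 times, among them 39 of 42 and 181 of 181 with the same sign on the linear scale. The requirement on DS6 Myc minus DS6, the removal of genes set by WT alone and that of genes set by any 1 array were chosen after seeing the data. No named gene past either limit changed sign under any alternative that kept it.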

Other observations

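Probe sets with several gene symbols or none were outside the members. Over all genes, 0.292% were at 2 or more and 1.26% at -2 or less. Of 688 probe sets with several symbols and 6 or more on any array, 7 were at 2 or more and 17 at -2 or less. Of 4062 with none the counts were 6 and 15. Among the former, the one that reads H19 and Mir675 was 5.63 in WT, 14.79 in DS6, 6.17 in Alb-c-Myc and 13.80 in DS6 Myc. H19, the imprinted fetal RNA next to Igf2, was thus high on both arrays with the deletion, with an interaction of -1.53, whereas that of Igf2 was -3.48. The probe set of Cyp3a41a and Cyp3a41b, P450 genes of female liver, was 13.16, 12.50, 9.10 and 13.58, an interaction of 5.14 with Alb-c-Myc low. That of the cornified envelope genes Sprr2a1 and Sprr2a2 was 8.62, 12.99, 8.68 and 8.72, an interaction of -4.32 with DS6 high.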
